A study of Saccharomyces cerevisiae with 5 samples.

Results

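The genes of glycolysis, of fermentation to ethanol and acetate, and of glycerol synthesis were taken as a list of 33 enzyme genes of budding yeast (Saccharomyces cerevisiae). Of these, 32 were matched to a probe set, among 5449 measured genes in all, and TDH2 was not analysed here. The series holds 2 arrays labelled as a PHO2 deletion mutant and 3 arrays of the wild-type reference strain FY4. PHO2 encodes a homeodomain transcription factor known for its part in purine, histidine and phosphate gene regulation. Both groups grew in batch in glucose minimal medium at 30 °C with shaking at 300 rpm and were collected in exponential phase at one cell density. The labels name no background strain, marker or clone for the deletion, and nothing states that replicates were grown separately. P-values thus reflect only how these particular samples vary, and that variation could be technical.

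Yeast growing on ample glucose ferments it. Hexose kinases trap the sugar, the upper steps split it into triose phosphates, and the lower steps turn these into pyruvate with a net gain of ATP. Pyruvate decarboxylase and alcohol dehydrogenase then make ethanol and restore NAD, aldehyde dehydrogenases divert part of the acetaldehyde to acetate, and a side branch from dihydroxyacetone phosphate makes glycerol. Most steps have several isozymes, of which some are known to serve fast fermentation and others to be induced by stress, high osmolarity or low glucose.

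All values are log2 of the deposited array signal, and every difference is that of the arrays labelled PHO2 deletion minus wild-type, with limma's moderated standard error. The PHO2 probe set did not mark the deletion: it read 10.07 and 10.84 on the arrays labelled PHO2 deletion, against 10.72, 10.54 and 10.38 on the wild-type arrays (difference -0.09, SE 0.24, adjusted p = 0.825). Where its probes lie relative to the deleted stretch was not examined, so the group names are used as labels. Precision is limited throughout by how few arrays there are. A gene is said to rise or fall only where its adjusted p over all 5449 genes was below 0.05.

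TDH1, GPP2 and ADH5, each 1 of several isozymes of its step, rose in the arrays labelled PHO2 deletion, and no member fell. The genes of the main fermentative route differed by no more than 0.12 in size. The count was 3 risen of 32 (9.38%), against 3.17% of all genes, and 0 fallen, against 1.87% of all genes. In either direction 5.05% of all genes passed. No member passed when replicate 1 of the wild-type, or any array labelled PHO2 deletion, was left out.

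The 2 groups did not overlap, with the arrays labelled PHO2 deletion higher, for 8 of 32 members (25.0%), against 27.1% of all genes. They did not overlap, with the arrays labelled PHO2 deletion lower, for 6 members (18.8%), against 25.9% of all genes. An unadjusted p below 0.05 was found for 8 members (25.0%), against 29.4% of all genes. These 3 shares lie near or below those of all genes. The median difference was -0.01 over the members and 0.01 over all genes, and the median absolute difference was 0.04 over the members and 0.13 over all genes. For 20 of the 32 members the difference was smaller than 0.1 in size.

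**Figure D1:**
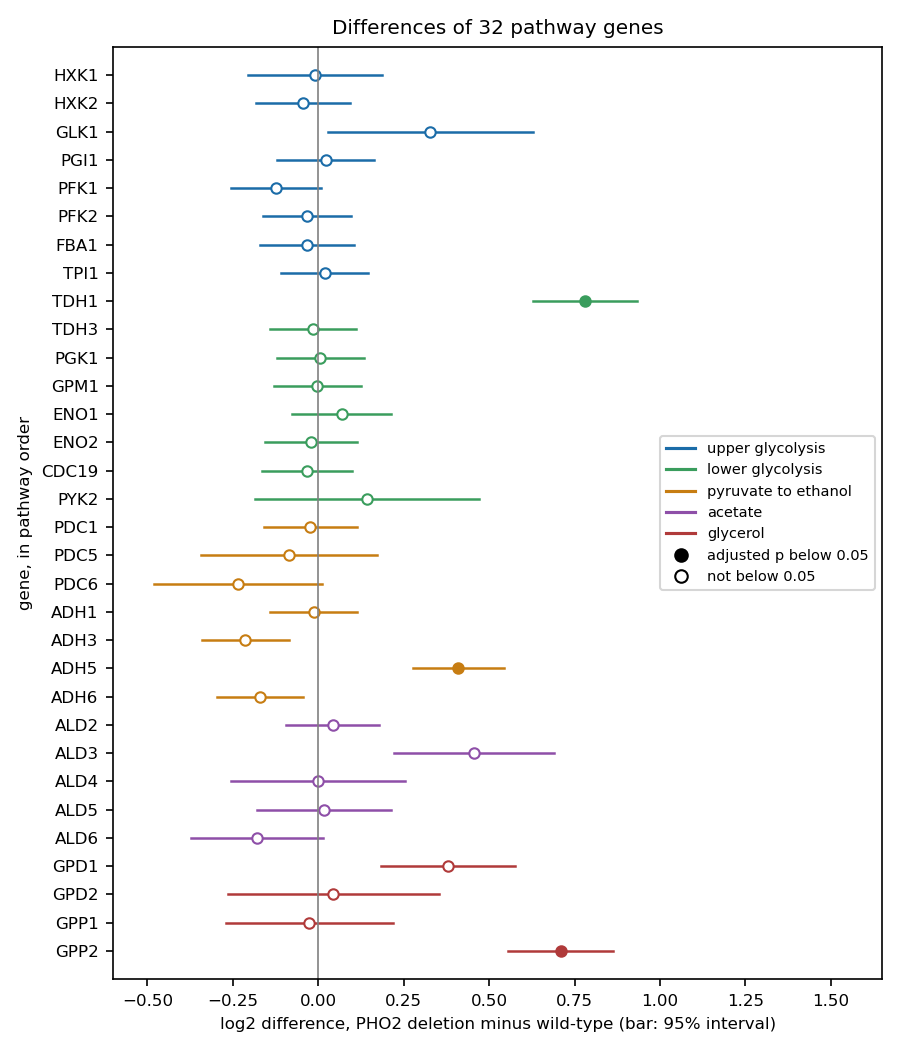
Log2 difference of each of the 32 measured genes (x axis, arrays labelled PHO2 deletion minus wild-type) with its 95% interval from limma, in pathway order from top to bottom and coloured by step; filled points passed an adjusted p of 0.05. TDH1 (0.78), GPP2 (0.71) and ADH5 (0.41) are filled, and most other points lie close to 0.

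In the upper steps, none of 8 genes passed the test, and the median difference was -0.02. GLK1, the glucokinase, which phosphorylates glucose but not fructose, stood at 13.63 and 13.51 on the arrays labelled PHO2 deletion, against 13.19, 13.45 and 13.09 on the wild-type arrays. Both arrays labelled PHO2 deletion lay above all wild-type arrays, by a narrow margin over wild-type replicate 2. The difference was 0.33 (SE 0.12, adjusted p = 0.148), and no alternative brought it past the threshold. With 1 array left out at a time it ranged from 0.25 (wild-type replicate 3 left out, adjusted p = 0.226) to 0.43 (wild-type replicate 2 left out, adjusted p = 0.0594).

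HXK1 and HXK2 encode the hexokinases, HXK2 being the form that predominates on glucose and also acts in glucose repression. HXK1 read 13.83 and 13.78 on the arrays labelled PHO2 deletion, against 13.77, 13.93 and 13.74 on the wild-type arrays. HXK2 read 14.25 and 14.20 on the arrays labelled PHO2 deletion, against 14.26, 14.24 and 14.30 on the wild-type arrays. The groups overlapped for both, with 95% intervals of the difference from -0.21 to 0.19 for HXK1 and from -0.18 to 0.09 for HXK2.

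PFK1 and PFK2 encode the alpha and beta subunits of phosphofructokinase, a main control point of the pathway. PFK1 had values of 13.95 and 14.01 on the arrays labelled PHO2 deletion, against 14.08, 14.11 and 14.11 on the wild-type arrays, a difference of -0.12 (SE 0.05, adjusted p = 0.188) with groups that did not overlap. PFK2 differed by -0.03. For phosphoglucose isomerase (PGI1), aldolase (FBA1) and triose phosphate isomerase (TPI1) the differences were 0.02, -0.03 and 0.02, each with a 95% interval inside 0.25 of 0 on either side.

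In the lower steps, 1 of 8 measured genes rose, against 3.17% of all genes. TDH1, an isozyme of glyceraldehyde-3-phosphate dehydrogenase known from growth arrest and stress rather than from fast growth, had values of 14.11 and 14.07 on the arrays labelled PHO2 deletion, against 13.32, 13.24 and 13.36 on the wild-type arrays. The groups lay far apart and each was tight. TDH1 was 1.72-fold higher (log2 0.78, SE 0.06, 95% interval 0.63 to 0.93, adjusted p = 0.00849), the largest difference among the members and the 231st in size of all genes. Leaving out wild-type replicate 1 gave an adjusted p of 0.0654, and leaving out PHO2 deletion replicate 1 or 2 gave 0.108 and 0.0680, with differences of 0.79, 0.76 and 0.80.

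TDH3, the major isozyme of the same step, read 15.18 and 15.17 on the arrays labelled PHO2 deletion, against 15.20, 15.18 and 15.20 on the wild-type arrays. Its difference was -0.02 (95% interval -0.14 to 0.11). The within-array log2 ratio of TDH1 to TDH3 came to -1.07 and -1.10 on the arrays labelled PHO2 deletion, against -1.87, -1.93 and -1.84 on the wild-type arrays. The ratio was thus 1.74-fold higher, and its groups did not overlap. Such ratios compare different probe sets, so only their shift between groups is read, and TDH3 was the brightest probe set on every array, as described below.

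The remaining lower steps showed differences under 0.15 in size. Phosphoglycerate kinase (PGK1) differed by 0.01, phosphoglycerate mutase (GPM1) by 0.00 and the enolase gene ENO2 by -0.02. ENO1, the enolase isozyme less tied to glucose growth, read 14.59 and 14.60 on the arrays labelled PHO2 deletion, against 14.50, 14.49 and 14.58 on the wild-type arrays, a difference of 0.07 (adjusted p = 0.447). CDC19, the main pyruvate kinase, differed by -0.03 and its minor isozyme PYK2, known from conditions of low glycolytic flux, by 0.14 (SE 0.13, adjusted p = 0.490).

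**Figure D2:**
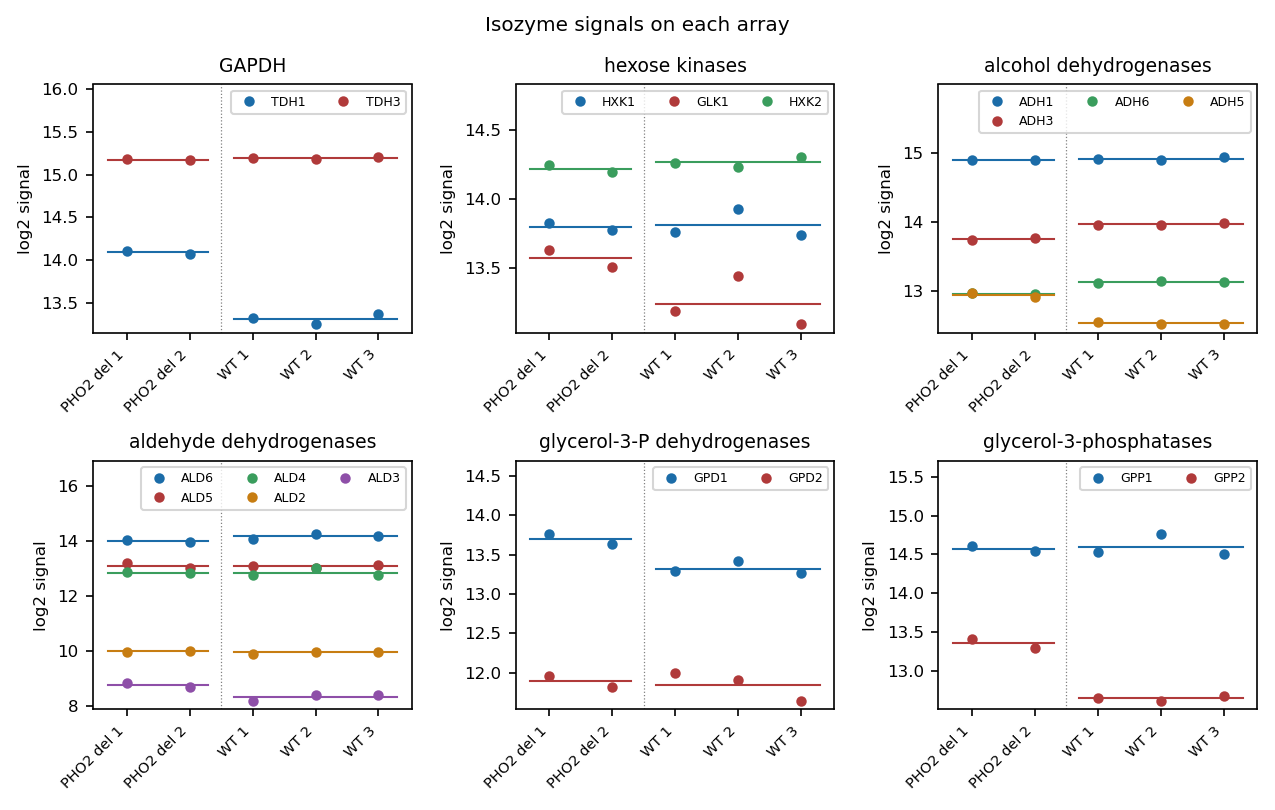
Log2 signal (y axis) of isozyme genes on each array (x axis, arrays labelled PHO2 deletion left of the dotted line, wild-type right of it), with lines at the group means; y axes differ between panels, and vertical gaps between genes compare different probe sets. TDH1, GPP2 and ADH5 step up in the arrays labelled PHO2 deletion while the groups overlap for TDH3, GPP1 and ADH1, and GLK1 varies among the wild-type arrays.

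From pyruvate to ethanol, 1 of 7 genes rose, against 3.17% of all genes, and 0 fell, against 1.87% of all genes. A negative difference was found for 6 of the 7, from -0.24 (PDC6) to -0.01 (ADH1). Of all 5449 genes, 2818 had a positive difference. ADH5, an alcohol dehydrogenase isozyme of minor activity, had values of 12.97 and 12.92 on the arrays labelled PHO2 deletion, against 12.56, 12.53 and 12.52 on the wild-type arrays. This gene was 1.33-fold higher (log2 0.41, SE 0.05, adjusted p = 0.0239). With wild-type replicate 1 left out the adjusted p was 0.106, and with PHO2 deletion replicate 1 or 2 left out it was 0.182 and 0.119.

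None of the other 3 alcohol dehydrogenase genes passed the test. ADH1, the main cytosolic ethanol-forming enzyme, differed by -0.01 (95% interval -0.14 to 0.11). ADH3, the mitochondrial isozyme, read 13.75 and 13.77 on the arrays labelled PHO2 deletion, against 13.97, 13.96 and 13.99 on the wild-type arrays (difference -0.21, SE 0.05, adjusted p = 0.0768). ADH6, an NADPH-dependent enzyme, read 12.97 and 12.97 on the arrays labelled PHO2 deletion, against 13.12, 13.15 and 13.14 on the wild-type arrays (difference -0.17, SE 0.05, adjusted p = 0.109). Both were lower in every array labelled PHO2 deletion than in any wild-type array, and neither passed the test. ADH3 did pass with a mean-variance trend in the fit (adjusted p = 0.0312) and with array weights (0.0460).

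Pyruvate decarboxylase has a main gene, PDC1, and 2 others. PDC1 read 14.87 and 14.87 on the arrays labelled PHO2 deletion, against 14.90, 14.86 and 14.94 on the wild-type arrays, so that the groups overlapped. PDC5, known to be induced when PDC1 is missing or thiamine is scarce, read 11.56 and 11.83 on the arrays labelled PHO2 deletion, against 11.82, 11.69 and 11.83 on the wild-type arrays. PDC6, known from nonfermentable carbon and sulfur limitation, read 9.79 and 9.97 on the arrays labelled PHO2 deletion, against 10.08, 10.02 and 10.24 on the wild-type arrays. The PDC6 difference, -0.24 (SE 0.10, adjusted p = 0.180), was the lowest among the members, and those of PDC5 and PDC1 were -0.09 and -0.02.

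None of the 5 aldehyde dehydrogenase genes passed the test. ALD3, a cytosolic isozyme induced by stress, had values of 8.83 and 8.68 on the arrays labelled PHO2 deletion, against 8.17, 8.37 and 8.37 on the wild-type arrays. The groups did not overlap, and the difference was 0.46 (SE 0.09, adjusted p = 0.0587). Over 15 alternatives it ranged from 0.26, with the arrays quantile normalized again (adjusted p = 0.110), to 0.53. ALD3 passed in 2 of them, array weights (0.51, adjusted p = 0.0303) and the correction for coding length (0.47, adjusted p = 0.0334). ALD2, the tandem neighbour and close relative of ALD3, read 9.9625 and 9.9991 on the arrays labelled PHO2 deletion, against 9.8984, 9.9603 and 9.9587 on the wild-type arrays, a difference of 0.04 (95% interval -0.09 to 0.18). How far the probes of ALD2 and ALD3 share sequence was not examined. The within-array ratio of ALD3 to ALD2 was 1.33-fold higher (log2 0.41), with groups that did not overlap. With the arrays quantile normalized again, that log2 shift was 0.31 and the ALD2 difference was -0.05.

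ALD6, the main cytosolic source of acetate in fermenting cells, read 14.06 and 13.96 on the arrays labelled PHO2 deletion, against 14.09, 14.27 and 14.20 on the wild-type arrays (difference -0.18, SE 0.08, adjusted p = 0.188). ALD4, the major mitochondrial isozyme, read 12.87 and 12.82 on the arrays labelled PHO2 deletion, against 12.76, 13.02 and 12.76 on the wild-type arrays. ALD5, the minor mitochondrial isozyme, read 13.20 and 13.02 on the arrays labelled PHO2 deletion, against 13.10, 13.03 and 13.15 on the wild-type arrays. ALD4 and ALD5 overlapped between the groups, with differences of 0.00 and 0.02.

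In glycerol synthesis, the osmotically responsive member of each isozyme pair read higher on both arrays labelled PHO2 deletion than on any wild-type array, and its partner overlapped between the groups. GPP2 passed the test and GPD1 did not. GPP2, a glycerol-3-phosphatase known from the high-osmolarity response, had values of 13.41 and 13.30 on the arrays labelled PHO2 deletion, against 12.65, 12.62 and 12.68 on the wild-type arrays. Its signal was 1.63-fold higher (log2 0.71, SE 0.06, 95% interval 0.55 to 0.86, adjusted p = 0.0105). GPP1, the constitutive phosphatase, read 14.61 and 14.55 on the arrays labelled PHO2 deletion, against 14.54, 14.77 and 14.50 on the wild-type arrays, with overlapping groups and a difference of -0.03. For GPP2 the adjusted p was 0.0694 when wild-type replicate 1 was left out, and 0.108 and 0.0598 when PHO2 deletion replicate 1 or 2 was.

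GPD1 and GPD2 encode the glycerol-3-phosphate dehydrogenases of the preceding step, GPD1 answering to osmotic stress and GPD2 to a lack of oxygen. GPD1 had values of 13.77 and 13.64 on the arrays labelled PHO2 deletion, against 13.29, 13.42 and 13.26 on the wild-type arrays. The groups did not overlap, yet the difference of 0.38 (SE 0.08, adjusted p = 0.0587) did not pass. GPD2 read 11.9616 and 11.8227 on the arrays labelled PHO2 deletion, against 11.9998, 11.9034 and 11.6425 on the wild-type arrays, a difference of 0.04 (SE 0.12, adjusted p = 0.836). GPD1 passed in 4 of 15 alternative settings, among them the correction for coding length (adjusted p = 0.0401) and array weights (0.0317).

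**Figure D3:**
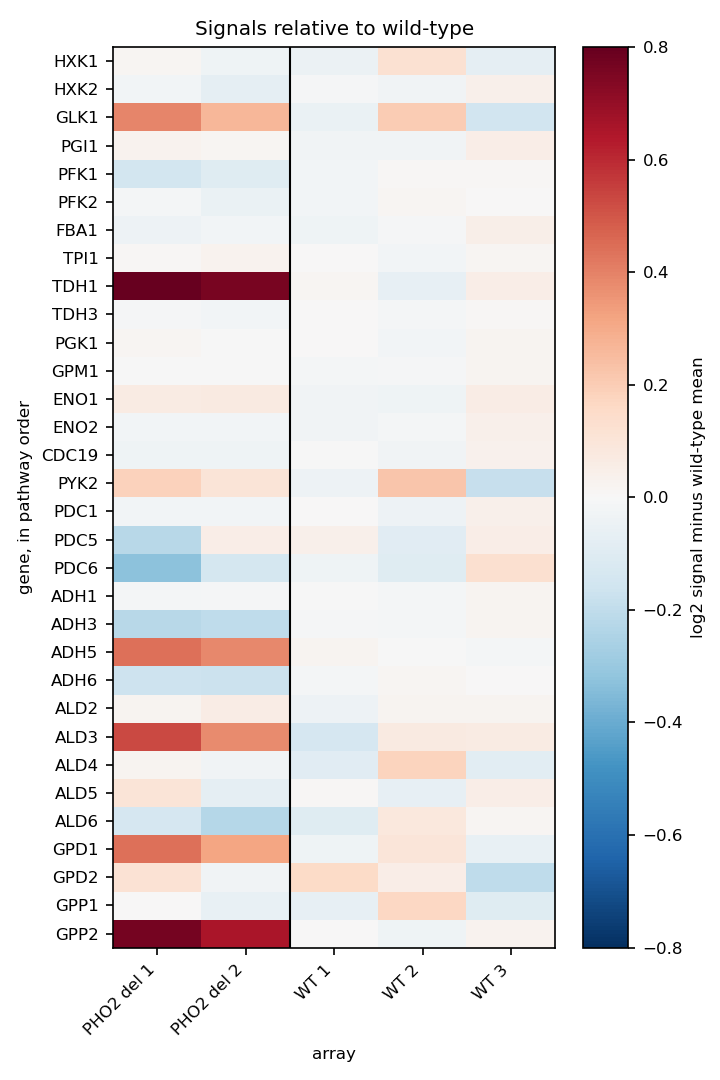
Log2 signal of each of the 32 genes on each array minus the gene's wild-type mean (colour, red above and blue below), genes in pathway order and arrays labelled PHO2 deletion left of the black line. The rows of TDH1, GPP2 and ADH5 are red on both of those arrays, and the column of wild-type replicate 2 is red for GLK1, PYK2, ALD4, GPP1 and HXK1.

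The shift of isozyme ratios was computed for 19 of 21 pairs, since TDH2 was not analysed here. For 15 pairs the groups did not overlap, but several genes enter more than 1 pair. Of all single genes, 27.1% had groups that did not overlap with the arrays labelled PHO2 deletion higher, and 25.9% with them lower. Such a share was not computed for ratios of other gene pairs. With groups of 2 and 3 arrays the exact permutation test (two-sided, 10 splits) cannot go below p = 0.2, which these 15 pairs reached (adjusted p = 0.253 over the 19 pairs), so no pair could pass. The largest shifts were those of TDH1 to TDH3 (0.80), GPP2 to GPP1 (0.73), ALD3 to ALD6 (0.64) and ADH5 to ADH1 (0.42). After the arrays were quantile normalized again, these 4 shifts were 0.76, 0.70, 0.46 and 0.37. The ratios of ALD3 to ALD2 (0.41), GLK1 to HXK2 (0.37) and GPD1 to GPD2 (0.34) were also higher on both arrays labelled PHO2 deletion than on any wild-type array, as were those of GLK1 to HXK1 (0.34), ALD2 to ALD6 (0.22), ALD4 to ALD6 (0.18) and ENO1 to ENO2 (0.09). In 4 of the 15 pairs the ratio was lower on both arrays labelled PHO2 deletion than on any wild-type array: PDC6 to PDC1 (-0.21), ADH3 to ADH1 (-0.20), ADH6 to ADH1 (-0.16) and PFK1 to PFK2 (-0.09). The ratios of HXK1 to HXK2 (0.04), PYK2 to CDC19 (0.18), PDC5 to PDC1 (-0.06) and ALD5 to ALD4 (0.02) overlapped between the groups. Repeated quantile normalization also lowered the shifts of ALD3 to ALD2 (0.31) and ALD2 to ALD6 (0.15). The 4 lower pairs grew in size (-0.35, -0.22, -0.21 and -0.11), as did GLK1 to HXK2 (0.39) and GPD1 to GPD2 (0.36). Medians over all probe sets were 8.02, 7.98 and 7.93 for wild-type replicates 1 to 3. For PHO2 deletion replicates 1 and 2 they were 8.29 and 8.22. The part of this offset in the ratios was not tested.

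Sorted by known role, the 14 measured genes of the main fermentative route held 0 risen and 0 fallen genes by limma. Of all genes 29.4% had an unadjusted p below 0.05, against 0 of these 14. That share covers genes of every brightness, and only 4 of the 14 remained when the brightest 1% of genes were left out. At wild-type means of 14.5 or more, 1.64% of genes passed the adjusted test, against 5.05% of all genes. The median difference of the 14 was -0.02 and their range -0.12 (PFK1) to 0.07 (ENO1). Of 10 isozymes known to respond to stress, osmolarity or low glucose, 2 rose (TDH1 and GPP2), where 3.17% of all genes rose, and 0 fell. Their median was 0.23, with a range from -0.24 (PDC6) to 0.78 (TDH1). The 6 with groups that did not overlap and higher values in the arrays labelled PHO2 deletion were TDH1, GPP2, ALD3, GPD1, GLK1 and ALD2, where 27.1% of all genes had such groups. ALD2 is among them by the gap between 9.9625 on PHO2 deletion replicate 1 and 9.9603 on wild-type replicate 2. HXK1 (-0.01), ALD4 (0.00) and PDC6 did not share that direction, and PYK2 overlapped.

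Of 26 measured general stress genes, none of them a member, 11 rose, 15 did not pass and 0 fell, against 3.17% of all genes risen. Positive differences were found for 25, against 2818 of all 5449 genes, and the median difference was 0.47. UGP1 was lower (-0.13), and DDR48 (0.02), PGM2 (0.14) and HSP104 (0.18) were also among the 15 that did not pass. The 5 largest rises were those of YGP1, a secreted glycoprotein gene (2.95, SE 0.12, adjusted p = 0.00086), HSP12, a small membrane-stabilising stress protein gene (1.69, adjusted p = 0.0211), SOL4 (1.06), SPI1, a cell wall protein gene (1.004), and CTT1, the cytosolic catalase gene (0.85, adjusted p = 0.0471). The list's median log2 value stood at 11.77 and 11.75 on the arrays labelled PHO2 deletion, against 11.19, 11.35 and 11.22 on the wild-type arrays. The count of risen stress genes dropped to 1 when replicate 1 of the wild-type or any array labelled PHO2 deletion was left out, and to 5 when wild-type replicate 3 was. The same count was 15 without wild-type replicate 2 and 2 with the replicate number as a block. The part of these stress gene differences in the values of TDH1, GPP2 and the other inducible isozymes was not tested. Genes of the glucose-repressed and respiratory state (14 measured of 15) held 0 risen and 0 fallen genes by limma. Their median difference was 0.01, and 8 of the 14 had a positive difference. Before adjustment, limma gave 6 of the 14 a p under 0.05, where the share over all genes was 29.4%. Both arrays labelled PHO2 deletion lay below every wild-type array for 5 of the 14, where 25.9% of all genes did so. They lay above every wild-type array for 1 of the 14, where the share over all genes was 27.1%. The largest difference was that of ADR1, an activator of glucose-repressed genes (-0.55, SE 0.10, adjusted p = 0.0504). Between 1 and 3 of these genes fell in 7 of 15 alternatives, with 3 fallen and a median of -0.18 when the arrays were quantile normalized again.

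Wild-type replicate 2 read higher than the other wild-type arrays for some members. Its value minus the mean of wild-type replicates 1 and 3 was 0.34 for PYK2, 0.30 for GLK1, 0.27 for ALD4, 0.25 for GPP1, 0.18 for HXK1 and 0.15 for GPD1, but 0.03 for ALD2 and -0.14 for PDC6. The same quantity had a median of 0.13 over the 10 inducible isozymes, 0.31 over the general stress list, -0.03 over the main fermentative route and 0.02 over all genes. It was -0.10 for TDH1, -0.05 for GPP2 and -0.01 for ADH5, so the 3 members that rose were not raised on wild-type replicate 2. All 3 passed the test without that array.

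Several of the fermentative genes sat at the upper end of the signal range. TDH3 was the brightest of 10928 probe sets on each of the 5 arrays, with a wild-type signal of 37428 on the linear scale. Of the 10 brightest probe sets in wild-type, 6 were members, and 9 of the 20 brightest. Between log2 14.8 and 15 lay 14 probe sets, of which 8 were members (GPM1, CDC19, PGK1, ADH1, ENO2, TPI1, PDC1 and FBA1). These 8 had wild-type means between 14.88 and 14.94 and differences between -0.03 and 0.02. The limits of 14.8 and 15 were set by choice, so signals of different mRNAs between them are nearly equal by definition. The range in which such signals still follow the amount of RNA cannot be read from the deposited values.

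The spread shrank with brightness for all genes. Of the 61 genes with a wild-type mean of 14.5 or more, 11 of them members, 1 passed the test (1.64%), the median SD of the wild-type arrays was 0.03 and the median absolute difference 0.06. At means from 10 to 11, with 1350 genes, the median SD was 0.09 and the median absolute difference 0.12. The largest absolute difference at 14.5 or more was 0.49 (SHM2), and from 14 to 14.5 it was 2.37 (ADE17). TDH1, GPP2 and ADH5 had wild-type means of 13.31, 12.65 and 12.54, below 14. On the arrays labelled PHO2 deletion their means were 14.09, 13.36 and 12.95, so that TDH1 lay between 14 and 14.5 there. Whether saturation narrows the differences of the brightest members was not tested.

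**Figure D4:**
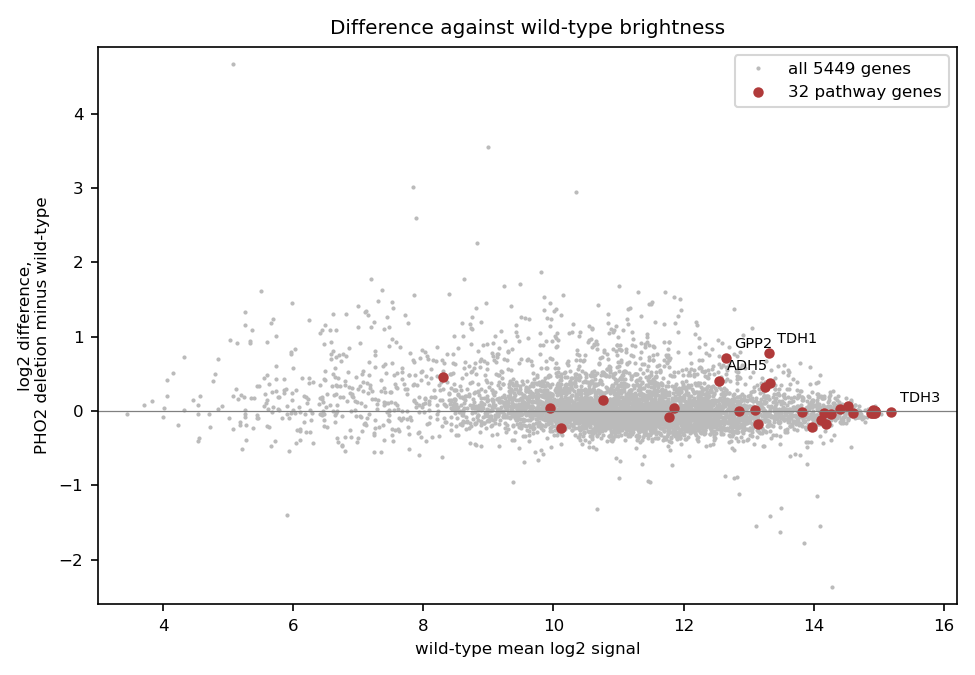
Log2 difference (y axis, arrays labelled PHO2 deletion minus wild-type) against the wild-type mean log2 signal (x axis) for all 5449 genes (grey) and the 32 pathway genes (red). The cloud narrows towards the right, where 8 fermentative genes between 14.88 and 14.94 have differences from -0.03 to 0.02. TDH1 and GPP2 lie above the other pathway genes, and ADH5 (0.41) lies at a height near that of ALD3 (0.46), GPD1 (0.38) and GLK1 (0.33).

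Genes around the pathway were taken from 4 further lists. The 15 genes for other fates of pyruvate and acetate had a median difference of -0.18. Of these, 4 fell, against 1.87% of all genes, and 0 rose, against 3.17% of all genes. DLD1, DLD2 and DLD3, genes named for D-lactate dehydrogenase, were among the 4 that fell. DLD2 had values of 11.4638 and 11.4607 on the arrays labelled PHO2 deletion, against 11.9988, 12.0846 and 12.1408 on the wild-type arrays (difference -0.61, SE 0.06, adjusted p = 0.0152). DLD3 fell by 0.42 (SE 0.06, adjusted p = 0.0244) and DLD1, whose product passes electrons to cytochrome c, by 0.40 (SE 0.06, adjusted p = 0.0367).

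PYC1, a pyruvate carboxylase that feeds oxaloacetate synthesis, had values of 13.13 and 13.16 on the arrays labelled PHO2 deletion, against 13.64, 13.73 and 13.78 on the wild-type arrays (difference -0.58, SE 0.06, adjusted p = 0.0156). None of these 4 genes passed when replicate 1 of the wild-type, or any array labelled PHO2 deletion, was left out (adjusted p from 0.0657 to 0.231 over DLD1, DLD2, DLD3 and PYC1), and DLD1 (0.0611) and DLD3 (0.0506) did not without wild-type replicate 2.

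The other 3 lists held no called gene by limma as reported. Their counts at an unadjusted p below 0.05 stand against 29.4% of all genes. Of 10 further isozymes and homologues of the pathway, 3 had an unadjusted p below 0.05, and GPM2, a homologue of the mutase gene, had the largest difference (0.56, SE 0.12, adjusted p = 0.0655). In that list 1 or 2 genes rose in 5 of 15 alternatives, with 2 under repeated quantile normalization, array weights and the correction for coding length. Of 10 regulators of glycolytic flux and transcription, 0 had an unadjusted p below 0.05, and FBP26, the fructose-2,6-bisphosphatase, had the largest difference (0.25, adjusted p = 0.277). Of 14 genes for glycerol transport, use and signalling, 1 had an unadjusted p below 0.05, and the glycerol transporter gene STL1 had the largest difference (0.33, adjusted p = 0.271) at a wild-type mean of 6.59, close to the background bound of 6.44.

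**Figure D5:**
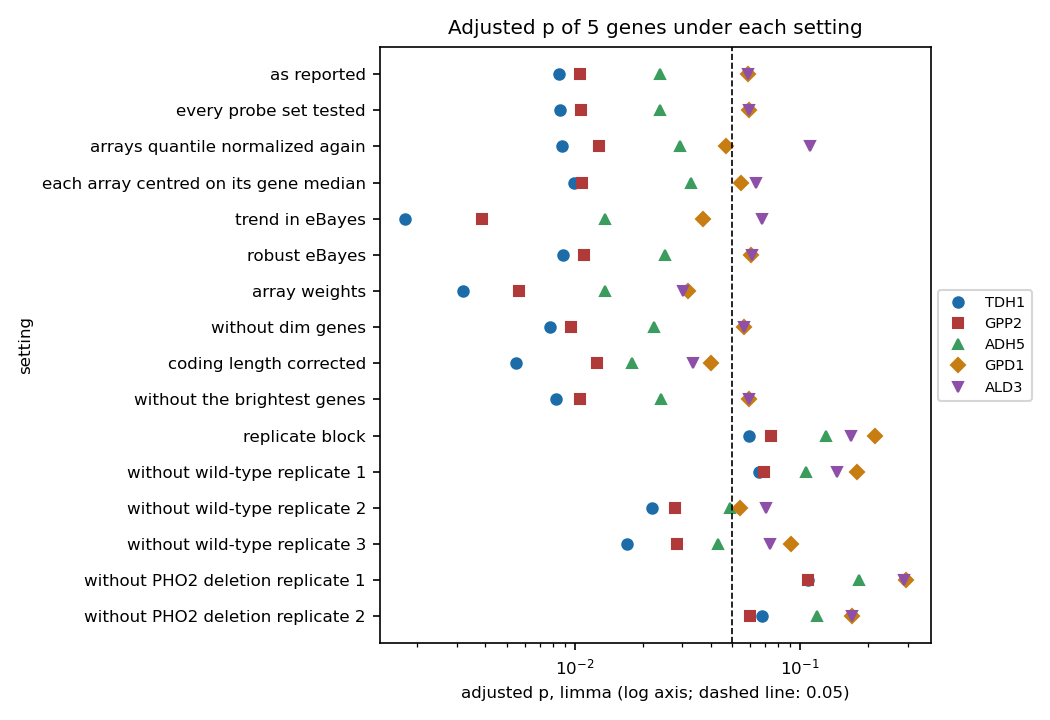
Adjusted p from limma (x axis, log scale, dashed line at 0.05) of TDH1, GPP2, ADH5, GPD1 and ALD3 as reported and under each of 15 alternative settings (y axis). TDH1, GPP2 and ADH5 lie left of the line in 11 of the 15 alternatives and right of it with the replicate block, with wild-type replicate 1 left out and with each array labelled PHO2 deletion left out in turn.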

How the data were processed

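Biotin-labelled RNA of 5 samples was hybridised to Affymetrix arrays. The authors deposited 1 linear-scale intensity for each probe set (9.49 to 37719), and the submitters' processing notes name R 2.8.0, affy and RMA. That RMA's log2 output was returned to the linear scale is inferred from these values. Neither the array library file nor scanner output was used here.

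Probe sets were matched by gene number or locus tag to assembly R64, for names and coding length only. For 47 genes with several probe sets the one with the highest mean was kept (no member had several). The background bound, 6.44, is the 95th percentile of log2 signals of 1747 annotated probe sets not matched to a single budding yeast gene. Any probe set annotated with more than 1 gene number was left unmatched and counts among these. All members exceeded the bound on every array. Log2 signals of 5449 genes were fitted with limma 3.58.1 in R 4.3.3 (lmFit, eBayes, 3 residual and 2.23 prior degrees of freedom, two-sided) and adjusted by Benjamini-Hochberg at 0.05. The fitting step was tested on simulated data. Isozyme ratios were tested by exact permutation in scipy 1.17.1. Quantile normalization, a step of RMA, hides a change common to most transcripts.

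The members and lists were chosen with earlier results of these data known, so no count over them is independent support. Every member is named with values. Of the other lists, those that passed (at most 5 a list, by size) and the largest difference are named. Some further genes of the general stress and glucose-repressed lists are named as well. Promoter and protein sequences were not analysed here.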

Additional observations from a re-analysis of the deposited data

How the results depend on the processing

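Under 15 alternatives the members' differences kept direction and side of the threshold in 414 values, passed it anew in 8, no longer passed it in 12, and changed sign below it in 35. No called value changed sign. TDH1, GPP2 and ADH5 passed in 11 of 15 each, with differences of 0.74 to 0.81, 0.60 to 0.77 and 0.37 to 0.44. The number of risen members (3 as reported) was 5 with array weights and 5 after the correction for coding length. The number of fallen members (0 as reported by limma) was 1 with array weights and 1 with a mean-variance trend, both times ADH3. Of the 8 members with an unadjusted limma p below 0.05 as reported, only ADH3 and ADH6 read lower in the arrays labelled PHO2 deletion. Called genes in all (275 as reported) numbered 638 with array weights. Leaving out an array gave 0 to 3 risen members and 19 to 257 called genes; leaving out either array labelled PHO2 deletion leaves a lone array, assumed to vary like wild-type. With the replicate number as a block, a fit that has 1 residual degree of freedom and in effect drops wild-type replicate 3, the replicate block gave 0 risen members and 35 called genes. Nothing in the labels says that numbers pair the arrays. Deviations correlated at r = -0.38 for number 1 and 0.00 for number 2, across genes. The deviations of the 2 arrays labelled PHO2 deletion from their mean are mirror images, so these values cannot decide whether numbers pair the arrays. The cause of the lost calls was not tested. Isozyme ratios were recomputed under 8 of the alternatives (both scalings, coding length and each array left out), and moved by less than the wild-type SD in 129 values and by more in 23. Re-scaling moved the median of all genes to between -0.05 and -0.03. Called genes were 173 risen and 210 fallen after quantile normalization again, against 173 and 102 as reported.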
